A study of Mus musculus with 2 samples.

Results

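Serpins are a superfamily of proteins that share a metastable fold with an exposed reactive centre loop. An inhibitory serpin offers this loop to a protease as bait, snaps into a relaxed form once cleaved, and traps the enzyme in a covalent complex. Some members have lost this activity and carry hormones or chaperone collagen instead. In the liver, hepatocytes secrete the plasma members, which hold clotting, fibrinolysis, complement and leukocyte proteases in check, while the clade b members act mainly inside cells.

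The serpin family was described here across RNA of 2 cell samples from the mouse liver at stage E12.5, both from wild-type C57Bl6 embryos. The first held mesothelial cells, which form a flat sheet over the surface of the organ and were taken by cell sorting with antibodies to podoplanin (Pdpn) after trypsin-EDTA digestion. The second held liver cells, for which no removal of Pdpn-carrying cells is stated. How many embryos were pooled is not stated either, and the description field of both samples names a stage before zygotic genome activation, which conflicts with the E12.5 of their titles, sources and age. With 1 array per group no test was possible, and the values describe only these arrays. Members were the genes named Serpin, a letter from a to i and a number, taken from probe sets whose platform annotation names a single gene. The rule found 39 genes on 53 probe sets, of 18193 genes and 45101 probe sets in all. There were 13 genes of clade a, 18 of clade b and 8 of the smaller clades c, d, f, g, h and i.

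Values are probe set intensities as deposited, and a difference is the log2 mesothelial intensity minus the log2 liver intensity. The gene value is that of its probe set with the highest mean log2 intensity. A gene was above the floor where at least 1 of its values reached the median of all probe sets of that array, 65.8 in mesothelial cells and 42.3 in liver cells. A gene above the floor is called mesothelium-high where its difference was at least 1, which is 2-fold, and liver-high where it was at most -1. Of all genes above the floor, 45.4% were mesothelium-high and 3.83% liver-high, and counts below are to be read against these. Control level is the brightest of 27 probe sets for bacterial transcripts, 16.2 and 10.5 on the respective arrays, or anything under it. The median difference of all genes was 0.66, so most genes read brighter on the mesothelial array. Between probe sets of a gene, differences had a pooled SD of 0.70 over 5323 genes, and this SD covers no spread between embryos, sorts or arrays. Pdpn, used for the sort, was 38.8-fold brighter in the sorted cells, and all 7 mesothelial markers above the floor were mesothelium-high. In such bulk samples, fewer cells of a type and less RNA per cell cannot be told apart.

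The clade a genes encoding alpha1-antitrypsin, the plasma inhibitor of neutrophil elastase, are near-identical copies in the mouse, and the array reads them through shared probes. The copies are shown by the letters just upstream of their annotated starts, with the capitals marking GTTAAT, which is a half-site of the HNF1 recognition sequence. Serpina7, on another chromosome, is shown for contrast because its upstream window also holds these letters.
Serpina1a: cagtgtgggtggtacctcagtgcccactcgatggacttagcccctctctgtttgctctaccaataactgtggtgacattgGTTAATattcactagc
Serpina1b: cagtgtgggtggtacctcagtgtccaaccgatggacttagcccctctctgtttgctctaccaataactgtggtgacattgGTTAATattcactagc
Serpina1c: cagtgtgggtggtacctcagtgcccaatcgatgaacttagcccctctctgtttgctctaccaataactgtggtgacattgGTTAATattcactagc
Serpina1d: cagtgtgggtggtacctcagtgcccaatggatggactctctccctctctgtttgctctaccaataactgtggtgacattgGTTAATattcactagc
Serpina1e: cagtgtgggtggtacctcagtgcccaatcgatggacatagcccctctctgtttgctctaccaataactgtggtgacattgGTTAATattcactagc
Serpina7: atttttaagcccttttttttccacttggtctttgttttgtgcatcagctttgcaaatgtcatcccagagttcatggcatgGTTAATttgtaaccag

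These sequences come from RefSeq for GRCm38.p6 and run 5′ to 3′ on the minus strand, on which all 6 genes lie. The windows are chr12:103863625-103863720 for Serpina1a, chr12:103738200-103738295 for Serpina1b and chr12:103904962-103905057 for Serpina1c. They are chr12:103773634-103773729 for Serpina1d, chr12:103956960-103957055 for Serpina1e and chrX:139085278-139085373 for Serpina7. Over 96 bases the 5 Serpina1 copies had the same base at 92.7% to 97.9% of positions in their 10 pairs. Serpina7, lined up on the capitals, matched them at 28.1% to 29.2%. GTTAAT was searched on both strands in the 250 bases before each start. It was present in 6.43% of 32851 promoters and in 7.49% of 27025 genes, counting a gene with any promoter that holds it. Among the 34 serpin members with a promoter sequence it was present in 5, namely Serpina1b, Serpina1c, Serpina7, Serpinb8 and Serpini2. Serpinb8 and Serpini2 lay under the floor, so the letters went with both bright and dim members.

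The Serpina1 copies were bright on both arrays and brighter in mesothelial cells as deposited. Serpina1b read 6334 in mesothelial and 3326 in liver cells from the probe set used, and 4899 and 2456 from its other. These are 1.90-fold and 1.99-fold differences, and that of the probe set used turned to -0.022 on the log2 scale when arrays were centred on the medians of the reference genes. Both of these probe sets are of the type that can bind several sequences (names ending in _x_at).

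Serpina1c had a probe set of the specific type and read 447.4 against 132.4, 3.38-fold higher in mesothelial cells, with a difference of 0.81 at the lowest scaling. Besides the members, 2 clade a probe sets were annotated to several copies. The set for Serpina1a and Serpina1d read 2983 against 1111, a difference of 1.43, and the set for Serpina1b, Serpina1c and Serpina1e read 336.9 against 252.5, a difference of 0.42. All 5 probe sets for these copies thus read higher in mesothelial cells as deposited, but the differences ran from 0.42 to 1.76. With shared probes, a level cannot be given to a single copy, and whether the copies differ from each other was not tested. Serpina1f, a further relative, was at control level on both arrays.

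**Figure D1:**
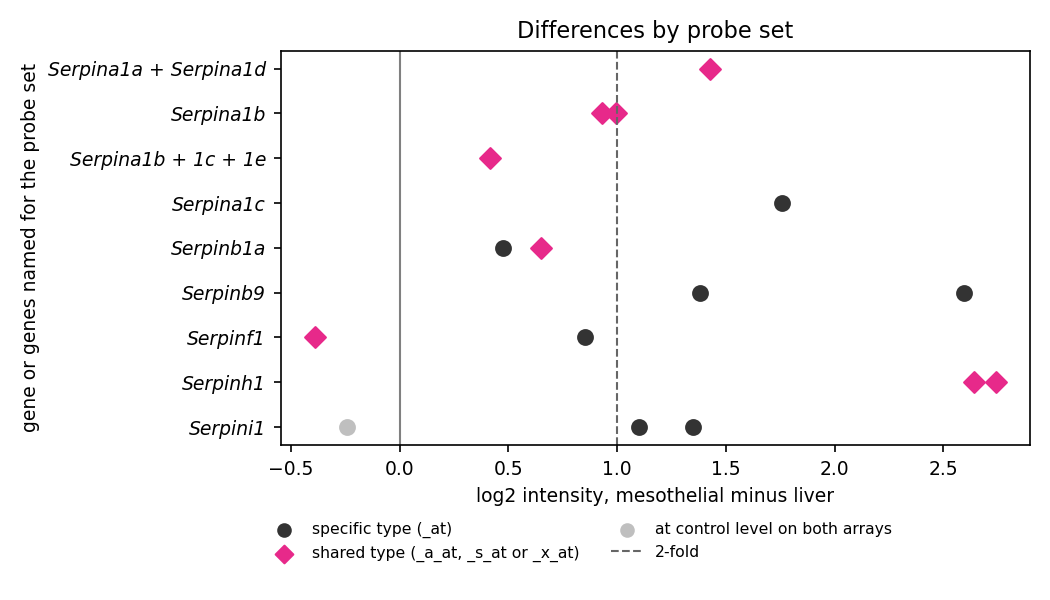
Log2 intensity difference, mesothelial minus liver, for each probe set of the serpin genes above the floor with several probe sets and of the Serpina1 copies. Diamonds are probe sets of the type that can bind several sequences, and the probe sets of Serpina1 spread from 0.42 to 1.76 while those of Serpinh1 lie close together at 2.64 and 2.74.

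The inhibitors of clotting and fibrinolysis made by hepatocytes were bright on both arrays, and none stood far to the liver side as deposited. Serpinc1, which encodes antithrombin, the main inhibitor of thrombin and factor Xa, read 1778 in mesothelial and 892.3 in liver cells, a difference of 0.99 that was 0.044 at the lowest scaling. Serpind1, heparin cofactor II, which inhibits thrombin on glycosaminoglycans, read 888.7 and 660.3, a difference of 0.43 that turned sign under all 4 other scalings. Serpina10, the protein Z-dependent inhibitor of factor Xa, read 827.3 and 388.6, 2.13-fold higher in mesothelial cells from a probe set of the shared type (_s_at). Under the 4 other scalings its difference was 0.14 to 0.66, so it was mesothelium-high only as deposited.

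Serpinf2 was the exception in direction as deposited. It encodes alpha2-antiplasmin, which blocks plasmin, and read 1617 in mesothelial cells against 1759 in liver cells, a difference of -0.12. Of the 18 serpin genes above the floor it was the only one brighter in liver cells, at percentile 13.2 of the differences of all genes above the floor. It stayed on the liver side under every scaling, down to -1.07 with the reference gene medians.

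Serping1 stood apart from those 4 genes in size. It encodes C1 inhibitor, which inactivates the first complement proteases, plasma kallikrein and factor XII, and which is made by mesenchymal cells and macrophages as well as by hepatocytes. It read 809.0 in mesothelial and 175.1 in liver cells, a 4.62-fold difference at percentile 87.4. It remained mesothelium-high under every scaling, with a lowest difference of 1.26. All 7 stellate and mesenchyme markers were also mesothelium-high, with summed intensities of 7451 against 1360. So were 6 of 7 macrophage markers, summed at 7487 against 1902, with none at control level on either array. The part of these cells in the Serping1 level was not tested.

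Hepatocyte markers give the scale for these plasma proteins. Their 7 measured members, all above the floor, differed by 0.29 to 0.91, with a median of 0.44, and none was at control level on either array. Alb, which encodes albumin, read 15683 in mesothelial and 12832 in liver cells. Serpind1 lay within that range and Serpinf2 below it. Serpina1b, Serpinc1, Serpina10, Serpina1c and Serping1 lay above it, the first by less than 0.02. The part of hepatocyte RNA in the serpin values of the sorted cells was not tested.

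**Figure D2:**
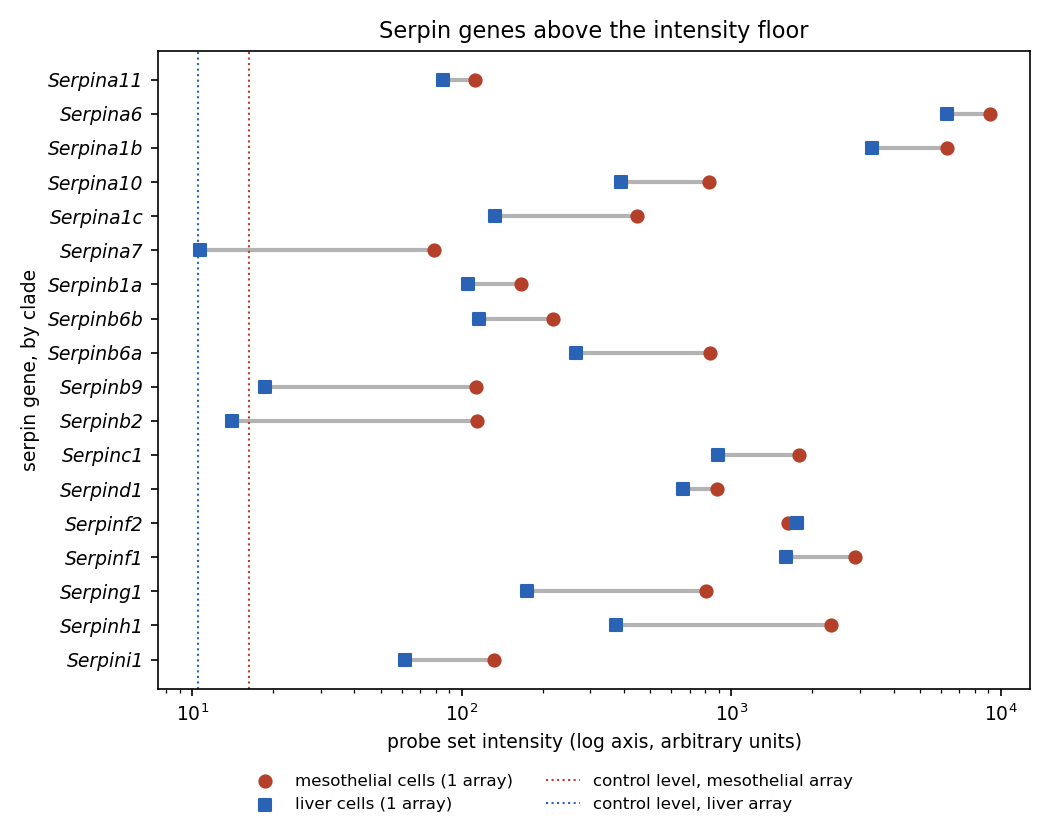
Probe set intensity on a log axis for the 18 serpin genes above the floor, ordered by clade, with circles for the mesothelial array, squares for the liver array and dotted lines for the control level of each. Serpinf2 alone is brighter in liver cells, and Serpina7, Serpinb2 and Serpinb9 are near the control level there.

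The proteases that these inhibitors act on were measured from lists of clotting, fibrinolysis and complement enzymes. Of 13 clotting and fibrinolysis proteases, 10 were above the floor, 4 of them mesothelium-high and 0 liver-high, with a median of 0.88 beside 0.90 for all genes above the floor. After centring on array medians 1 of the 10 was mesothelium-high, beside 23.9% of all genes above the floor. Thrombin's gene F2 read 1648 against 940.3 and F10 668.9 against 428.4, differences of 0.81 and 0.64 beside 0.99 for Serpinc1. Plg, which encodes plasminogen, read 457.6 against 224.8, a difference of 1.03, while Serpinf2 went slightly the other way. The medians of this list and of clade a after the reference gene medians were removed were -0.075 and 0.058. Of 6 complement proteases, all above the floor, 4 were mesothelium-high, with a median of 1.41, and 3 of the 6 were after centring on array medians. C1 inhibitor also inactivates the lectin pathway proteases. Of these, Masp2 read 194.3 against 47.3, a difference of 2.04, and Masp1 1760 against 532.5, a difference of 1.73, with SDs of 0.78 and 0.85 between probe sets. C2 lay between them in difference, at 455.4 against 130.3, or 1.805, and Cfi read 1354 against 635.0, or 1.09. The proteases of the C1 complex had smaller differences, with C1s1 at 217.0 against 136.8 and C1ra at 93.5 against 55.4, or 0.67 and 0.76.

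The hormone carriers, which no longer inhibit proteases, differed between themselves. Serpina6, which encodes corticosteroid-binding globulin, read 9129 in mesothelial and 6323 in liver cells. Its difference of 0.53 fell within the range of the hepatocyte markers and turned sign with the array medians and the reference gene medians. Serpina7, thyroxine-binding globulin, was dim, at 78.9 in mesothelial and 10.7 in liver cells, and the second value was just above control level. It was 7.37-fold higher in mesothelial cells, at percentile 94.5, and its difference was 1.93 at the lowest scaling. Serpina11 read 111.8 and 85.3, a difference of 0.39 that turned sign under all 4 other scalings.

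Angiotensinogen shares the serpin fold without the serpin name. Its gene Agt read 152.2 in mesothelial and 102.6 in liver cells, a difference of 0.57. Its receptor gene Agtr1a, in the same list of 5 measured angiotensin genes, read 332.3 against 59.5, 5.59-fold higher in mesothelial cells. Only these 2 of the list were above the floor, with a median of 1.53.

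Serpinh1 was the brightest of the 5 serpin genes with at least a 4-fold difference. It encodes the collagen chaperone of the endoplasmic reticulum, also known as HSP47, which binds the procollagen triple helix and does not inhibit proteases. It read 2338 in mesothelial and 374.8 in liver cells from the probe set used, and 2252 and 336.8 from its other. These are 6.24-fold and 6.69-fold differences, at percentile 92.4 for the first, and the lowest difference under any scaling was 1.69. Both probe sets are of the shared type (_x_at and _a_at), and the SD between them was 0.071.

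The collagens and enzymes that Serpinh1 works beside were higher with it. Of 15 measured collagen folding genes, all above the floor, 13 were mesothelium-high as deposited, with a median of 2.22. After centring on array medians 10 were, beside 23.9% of all genes above the floor. The fibrillar collagen gene Col1a2 read 8235 against 539.7, and the prolyl 3-hydroxylase gene P3h1 617.7 against 39.8, though its 2 probe sets differed by an SD of 1.53. Col3a1, another fibrillar collagen gene, read 8518 against 852.4, and the SD of its 2 probe sets was 0.060. Ppib, a cyclophilin that acts in a complex with P3h1, had the smallest difference, 4022 against 3548. The stellate and mesenchyme markers, with a median of 2.40, moved with this group, and their part in it was not tested.

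Serpinf1 encodes pigment epithelium-derived factor, a secreted protein without inhibitory activity that restrains vessel growth. Its probe sets disagreed in sign. The one used read 2874 in mesothelial and 1591 in liver cells, a difference of 0.85, and the other, of the shared type, read 175.6 and 230.4, a difference of -0.39. The first turned to -0.097 with the reference gene medians, so no direction is given. Endothelial markers, 3 of 6 of which were mesothelium-high, had a median of 0.87.

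**Figure D3:**
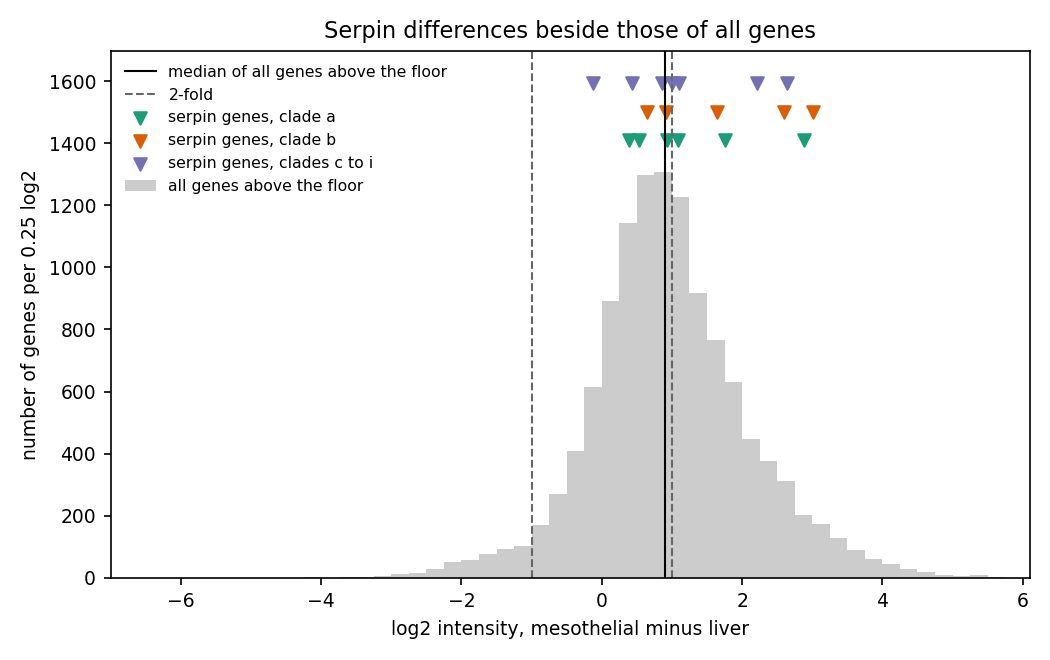
Histogram of the log2 intensity difference, mesothelial minus liver, over the 12018 genes above the floor, with triangles for the 18 serpin genes by clade and dashed lines at 2-fold. The serpins spread from -0.12 to 3.01 around the median of 0.90 for all genes, and none lies beyond the 2-fold line on the liver side.

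Clade b, the intracellular serpins, was mostly dim. Only 5 of its 18 measured genes were above the floor, and 7 were at control level on both arrays. Of the 7 clade b genes that RefSeq places on chromosome 1, only Serpinb2 was above the floor. Of the 10 on chromosome 13, those above the floor were Serpinb6a, Serpinb6b and Serpinb9. Serpinb1a had no chromosome in the promoter table used here.

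Serpinb2, plasminogen activator inhibitor 2, had the largest difference of all 18 serpin genes above the floor. It read 113.6 in mesothelial and 14.1 in liver cells, 8.06-fold higher at percentile 95.3, and its lowest difference under any scaling was 2.06. Its liver value was close to control level. Urokinase (Plau), a target of it, was near or at control level on both arrays, at 7.9 and 12.9. The urokinase receptor gene Plaur lay under the floor at 32.5 and 27.6. Plat, the gene of tissue plasminogen activator, is given beside Serpini1 below.

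Serpinb9, which protects cells from granzyme B, read 112.9 in mesothelial and 18.7 in liver cells, 6.04-fold higher. Its other probe set differed by 1.38, beside 2.59 for the first, and read 46.8 in mesothelial cells. Both probe sets thus read higher in mesothelial cells, and the lowest difference of the first under any scaling was 1.64. The gene of its protease, Gzmb, read 11.1 in mesothelial cells, within control level, and 10.6 in liver cells, just above it. The relatives Serpinb9b, Serpinb9c, Serpinb9d and Serpinb9g were under the floor, between 4.4 and 25.6, as was the probe set annotated jointly to Serpinb9e, Serpinb9f, Serpinb9g and Serpinb9h at 7.2 and 11.6.

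Serpinb6a and Serpinb6b are neighbours of the same cluster, and the human relative of Serpinb6a is known to inhibit cathepsin G. Serpinb6a read 830.7 in mesothelial and 265.7 in liver cells, a difference of 1.64 from a single probe set of the shared type (_a_at). Its lowest difference under any scaling was 0.69. Serpinb6b read 217.8 and 116.0, a difference of 0.91 that turned to -0.042 with the reference gene medians. Serpinb6c and Serpinb6e, further copies, were at control level on both arrays.

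Serpinb1a, an inhibitor of the neutrophil proteases elastase, cathepsin G and proteinase 3, read 165.5 in mesothelial and 105.4 in liver cells. Its difference of 0.65 was close to the median of all genes and turned sign under quantile normalization and with the reference gene medians. Its other probe set read 99.5 and 71.6. The granule proteases were mostly dim: of 11 measured, 3 were above the floor, 1 of them mesothelium-high, with a median of 0.49. Ctsg, which encodes cathepsin G, read 267.1 against 102.8 and Prtn3 261.5 against 186.8, while Elane lay under the floor at 48.6 and 21.5. Mcpt8, the only granule protease above the floor that was brighter in liver cells, read 41.8 against 63.2, a difference of -0.60.

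Markers of blood cells went different ways beside clade b. All 6 megakaryocyte markers were mesothelium-high, summed at 22153 against 6480, with a median of 2.06. Of 6 neutrophil markers, 5 were liver-high, summed at 2865 against 6682, with a median of -3.62 and 1 member at control level in mesothelial cells. Mpo, the remaining neutrophil marker, read 2552 in mesothelial and 1477 in liver cells, a difference of 0.79. The macrophage markers described beside Serping1, with 6 of 7 mesothelium-high and a median of 1.99, lay on the same side as Serpinb2, Serpinb9 and Serpinb6a. Of 3 mast cell markers above the floor, 2 were mesothelium-high, as was 1 of 3 lymphoid markers. Their part in the clade b values was not tested.

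Serpini1 encodes neuroserpin, an inhibitor of tissue plasminogen activator known from neurons. It read 131.9 in mesothelial and 61.5 in liver cells, a difference of 1.10, with 51.5 and 20.2 from a second probe set. Its last probe set was at control level on both arrays, at 4.4 and 5.2. The lowest difference of the first under any scaling was 0.15. Plat, the gene of its target, differed more, at 335.6 against 44.6, a 7.52-fold difference, and its 2 probe sets differed by an SD of 0.057. Of 4 neural markers 2 were above the floor, and neither differed by 2-fold.

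The 21 serpin genes under the floor read between 4.4 and 38.5, and 10 of them were at control level on both arrays. They were 7 genes of clade a, 13 of clade b and Serpini2. Among relatives of alpha1-antichymotrypsin, Serpina3n read 36.1 in mesothelial and 11.3 in liver cells, a 3.19-fold difference under the floor, while Serpina3a read 28.3 and 25.4 and Serpina3i was at control level on both arrays. Serpinb5, which encodes maspin, read 34.2 and 38.5 from the brightest of its 4 probe sets. Serpini2 read 7.2 in mesothelial cells, at control level, and 17.6 in liver cells, which bounds it at 1.09-fold or more higher in liver cells.

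Over the family, 9 of the 18 serpin genes above the floor were mesothelium-high, beside 45.4% of all genes above the floor. None was liver-high, beside 3.83% of all genes. The median difference was 1.04 over these 18 genes, beside 0.90 over all genes above the floor, and 0.43 over all 39 members, beside 0.66. As deposited, the share of the family on the mesothelial side was therefore close to the background. By clade, 3 of 6 genes of clade a above the floor were mesothelium-high, with a median of 1.01, 3 of 5 of clade b with a median of 1.64, and 3 of 7 of the small clades with a median of 0.99. Serpina7 of clade a and Serpinb2 and Serpinb9 of clade b passed the floor through the mesothelial array alone. The figures of these clades therefore rest partly on the filter. After centring on array medians, 7 of 18 were mesothelium-high, beside 23.9% of all genes, and 0 liver-high, beside 9.25%.

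The scaling between arrays moved most of these values. Of the 18 genes, 11 kept their sign under all 5 scalings and 7 did not, namely Serpina11, Serpina1b, Serpina6, Serpinb1a, Serpinb6b, Serpind1 and Serpinf1. The 5 genes that were mesothelium-high under every scaling were Serpinb2, Serpina7, Serpinh1, Serpinb9 and Serping1. Of these, Serpinb2, Serpina7 and Serpinb9 reached the floor on the mesothelial array only. The same 5 genes were those with at least 4-fold differences as deposited, a size that 15.9% of all genes above the floor reached. That overlap follows largely from the method. The shifts for array medians, reference gene medians and paired reference differences lower every difference by 0.64, 0.95 and 0.43. The shift of 0.95 compares different genes, because the median reference gene was Tfrc in mesothelial cells (6467.5) and Hprt in liver cells (3345.1). Serpina1b, Serpinb6b and Serpinf1 changed sign under that shift alone.

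**Figure D4:**
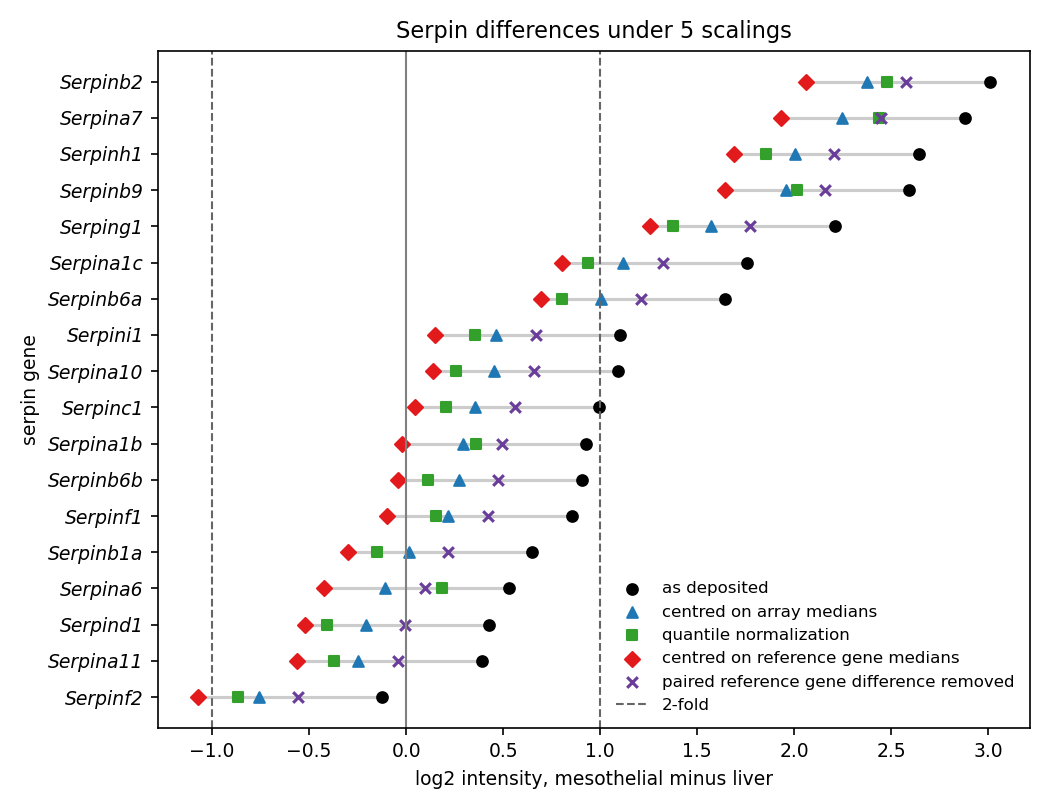
Log2 intensity difference, mesothelial minus liver, of each of the 18 serpin genes above the floor under 5 scalings of the arrays, with dashed lines at 2-fold. The points of Serpinb2, Serpina7, Serpinh1, Serpinb9 and Serping1 all lie beyond 1, and those of 7 genes fall on both sides of 0.

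Other classes of protease inhibitor were set beside the serpins. Of 16 measured, all above the floor, 13 were mesothelium-high and 0 liver-high, with a median of 1.54. The membrane inhibitor of matrix proteases Reck read 782.8 against 44.3, 17.7-fold higher, and the tissue inhibitors of metalloproteinases Timp1, Timp2 and Timp3 were 8.72-fold, 7.67-fold and 6.38-fold higher, with an SD of 1.32 between the probe sets of Timp2. Spint1, an inhibitor of epithelial surface proteases, read 46.6 against 44.1. After centring on array medians 7 of the 16 were mesothelium-high, beside 7 of 18 serpins and 23.9% of all genes above the floor. The difference between these classes was not tested.

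Receptors and cofactors of serpins lay mostly on the mesothelial side as deposited, as did most genes. Among the 9 above the floor, 7 were mesothelium-high, with a median of 1.55. After centring on array medians 3 of the 9 were mesothelium-high, beside 23.9% of all genes, and 1 liver-high, beside 9.25%. Lrp1, the receptor that clears serpin and protease complexes, read 1800 against 142.4, 12.6-fold higher, and the SD of its 2 probe sets was 0.75. Lrp2, a related receptor, was at control level in liver cells and at least 23.0-fold higher, but its 3 probe sets had an SD of 2.61. Hspg2, which encodes the heparan sulfate proteoglycan perlecan, was 3.58-fold higher, and Vldlr read 385.0 against 498.1.

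Proteases of the cell surface and the cell interior had 7 mesothelium-high genes of 10 above the floor, and a median of 1.13. After centring on array medians 2 of the 10 were mesothelium-high, beside 23.9% of all genes above the floor. The secreted protease Htra1 was 14.8-fold higher and the hepatocyte surface protease Tmprss6 5.51-fold. Furin, the convertase that many secreted proteins pass, was 2.83-fold higher. The cysteine protease Ctsb read 5223 against 4395, and its 5 probe sets had an SD of 1.13.

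Liver transcription factors had 4 mesothelium-high genes of 8 and a median of 1.02, close to that of clade a. After centring on array medians 1 of the 8 was mesothelium-high and 1 liver-high. Hnf4a read 2932 against 965.4, 3.04-fold higher, and the bile acid receptor gene Nr1h4 103.4 against 32.2. Onecut1 read 49.5 against 89.3, and its 2 probe sets had an SD of 1.02.

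**Figure D5:**
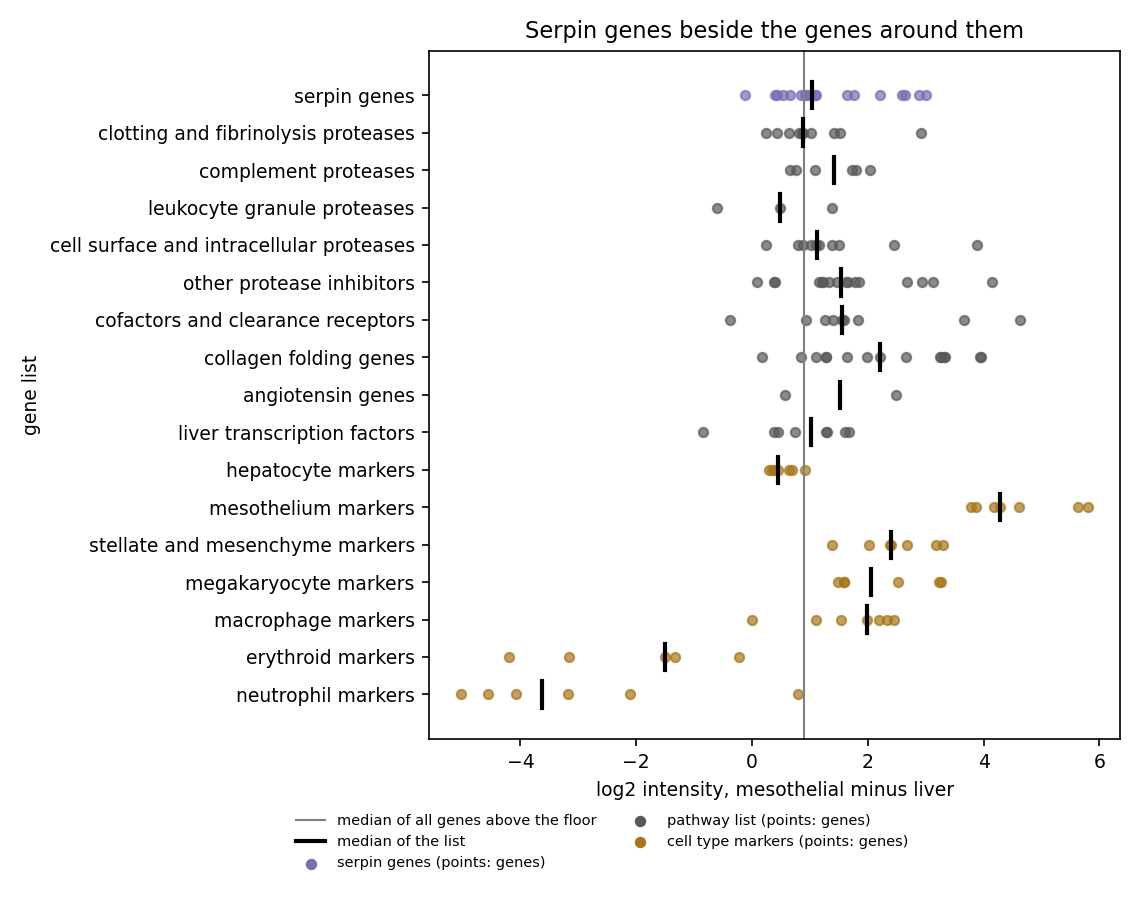
Log2 intensity difference, mesothelial minus liver, of the genes above the floor in the serpin family, 9 lists of related genes and 7 lists of cell type markers, with thick bars at list medians and a thin line at the median of all genes above the floor. The serpin median of 1.04 lies near that line, and those of collagen folding genes (2.22) and mesothelium markers (4.29) lie to its right.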

How the data were processed

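RNA was measured on GeneChip Mouse Genome arrays, and 20 ng of total RNA was amplified and labelled with biotin, per the labels' protocols. The authors deposited linear intensities per probe set, a scale read off from the range of the values. RMA and Partek appear in the submitters' processing notes without versions or roles, and the quantiles of the arrays differ. Amplification can alter ratios of transcripts. The number of arrays limits the precision, and no detection flags were used here.

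Log2 was taken of the intensities, and log2 differences were computed with Python 3.11.15, numpy 2.4.6 and pandas 2.3.3, checked on simulated data. Of 45101 probe sets, 64 of them controls, the 34945 others with a single symbol in the platform annotation were used. All 39 members matched RefSeq (GRCm38.p6) by gene ID, and 34 had a promoter sequence. No build is named for the arrays, so probe sets have no coordinates here. A fold whose lower value was at control level was taken against that level, as a bound.

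The members, the lists and the rule for named genes were chosen with earlier results of these data known. The rule names every member above the floor, members of groups of near-identical copies, and in each list up to 4 genes with the largest difference and the gene furthest the other way. It was not applied in full: several cell type lists are given by counts, medians or sums without named genes. Serpinb5 and Serpini2 were named outside it, as were F2, F10, Plg, C1ra, Gzmb, Plaur and Ctsb, most of them targets or partners of serpins, after their values were seen. Lists cover 9 groups of proteases, inhibitors, receptors, collagen folding, angiotensin and transcription factor genes and 12 cell types. Alternatives comprised medians of a gene's probe sets, omission of _x_at and _s_at probe sets, centring on array medians or on the per-array medians of 11 reference genes, quantile normalization, low values set to control level, omission of the floor, its rise to the 75th percentile and a 4-fold threshold. Removing the median paired difference of the reference genes was added after seeing the data.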

Additional observations from a re-analysis of the deposited data

How the results depend on the processing

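Labels give no replicate numbers and each group has 1 array. No paired analysis was possible because there is 1 array per group, and no replicate could be left out. A value counts as moved here when it changed by at least 0.70, the pooled SD between probe sets of a gene, and a count when it changed by over 1.5 times. The count of 9 mesothelium-high serpin genes became 5 with the reference gene medians, beside 16.9% of all genes, and 5 with quantile normalization, beside 20.7%. It became 5 of 11 with the floor at the 75th percentile, beside 42.9% of all genes, and 5 with the 4-fold threshold, beside 15.9%. The count of 0 liver-high serpin genes became 1 with the reference gene medians (Serpinf2), beside 14.8% of all genes, and 1 with no floor (Serpini2), beside 4.16%.

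With the reference gene medians, which shift every difference by 0.95, the medians were 0.091 for all serpins, 0.058 for clade a, 0.69 for clade b and 0.044 for the small clades. They were 0.46 for complement proteases, -0.075 for clotting and fibrinolysis proteases, -0.47 for granule proteases, 0.18 for surface and intracellular proteases and 0.59 for other inhibitors. They were 0.60 for receptors and cofactors, 1.27 for collagen folding genes, 0.57 for angiotensin genes and 0.065 for transcription factors. With quantile normalization they were 0.31 for all serpins, 0.80 for clade b, 0.21 for the small clades, 0.072 for clotting and fibrinolysis proteases, 0.59 for complement proteases and -0.33 for granule proteases. They were 0.33 for surface and intracellular proteases, 0.72 for other inhibitors, 0.72 for receptors and cofactors, 1.39 for collagen folding genes, 0.74 for angiotensin genes and 0.21 for transcription factors. The paired differences of the reference genes gave a shift of 0.43 only, with 7 mesothelium-high serpins, beside 29.3% of all genes above the floor.

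Without a floor, clade b turned to a median of -0.18 because 13 genes read under the floor came in, and angiotensin genes had 0.78. With the floor at the 75th percentile the latter had 2.48. Of 160 values of single serpin genes under the alternatives, 30 moved and 15 had the other sign. The sign of a difference under about 1 can therefore rest on the scaling, and signals near control level limit the dim genes.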

Other observations

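Some cell type lists bear on serpins only as background to the samples. Of 5 erythroid markers, 4 were liver-high, that is at least 2-fold brighter there, with a median of -1.50 and summed intensities of 7345 in mesothelial cells against 20812 in liver cells. Of 6 muscle markers, 5 were mesothelium-high, with a median of 2.31 and sums of 3369 against 622.3, and Actc1, a muscle actin gene, read 1574 against 194.1. Acta1, the remaining muscle marker, was liver-high at 22.7 against 67.4. Of the mesothelial markers, Wt1, required for coelomic epithelia, read 1994 against 102.0.

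The pseudogene Serpina4-ps1 was read by 3 probe sets between 4.5 and 7.5, all at control level on both arrays. Among the 5 serpins with a difference of at least 4-fold, Serpina7 had the lowest liver value, 10.7 against a control level of 10.5, so its fold rests on a reading next to the background.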
